A study of Saccharomyces cerevisiae with 28 samples.

Results

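The sites described here are 4191 clusters of PAR-CLIP reads that lay just downstream of open reading frames (ORFs), out of 34687 clusters kept in 8 libraries. The libraries hold RNA bound by Slf1 or Sro9, a pair of yeast proteins of the La-related family (LARPs). A cluster was counted when it held at least 5 reads and at least 2 T-to-C conversion events, was 11 to 100 nt long, and had its mode (the position of its strongest conversion signal) 1 to 200 nt after the stop codon of a protein-coding gene on the same strand and inside no other annotated gene. These after-stop clusters fell on 1398 of 6021 protein-coding genes, called hosts below. A further 24838 kept clusters had their mode in an ORF.

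PAR-CLIP feeds cells 4-thiouracil, crosslinks RNA to the bound protein with ultraviolet light, and reads the crosslinked uridines as T-to-C conversions. Slf1 and Sro9 each carried a C-terminal TAP tag, an affinity tag placed at the native gene in the BY4741 background, and both strains were sampled after 15 min in 0.4 mM H2O2 and without treatment, with 2 libraries from separate cultures in each of the 4 datasets. Bound RNA was trimmed with RNase T1, which cuts after G. Total RNA of untagged slf1Δ, sro9Δ and WT cells, with each deletion a replacement of the whole ORF by the KanMX4 marker, was measured after the same H2O2 treatment and untreated, again with 2 libraries per group.

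LARPs share a La motif, an RNA-binding fold first described in the La protein, which holds the uridine-rich ends of new RNA polymerase III transcripts. Slf1 and Sro9 are cytoplasmic and associate with translating ribosomes. The stretch after a stop codon is no longer read by elongating ribosomes. It carries the signals for cleavage and polyadenylation and the sites of many proteins that set the stability, localisation and translation of an mRNA. Yeast 3′ untranslated regions are short and rich in A and U.

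The libraries differed in depth, most of all within mRNAs. Slf1 libraries held 709 to 1825 kept clusters and 20817 to 32142 reads in mRNA clusters. Sro9 libraries held 6505 to 9022 clusters and 176413 to 258442 reads. Reads in all kept clusters differed less, at 342238 to 544490 for Slf1 and 678206 to 890669 for Sro9. An Slf1 site in an mRNA can thus be missed where a Sro9 site of the same strength is seen. The deposited tables list only clusters that passed the caller, and a 0 below therefore means that no kept cluster was there. Placement was also checked, because the authors' mapping allowed 2 mismatches and several places. Of the 4191 clusters, 806 (19.2%) had a further place in the genome within 2 mismatches, against 26.4% of ORF clusters. A second gene was overlapped at the edge by 41 of the clusters, and 13 had a host inside the nuclear rRNA locus. The library-level tests, counts of hosts in both replicates and edgeR fits of cluster reads were rerun without the overlapping or repeated clusters. Those that moved are given with both values. Pyrimidine runs, motifs, places and shares by gene group were computed on all 4191 clusters only.

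The 8 sequences below, from strong or often found sites, show what these contacts look like. Each sequence is the part of a cluster nearest to its mode, as RNA read 5′ to 3′ in DNA letters from the R64 (sacCer3) genome, and capitals mark its longest unbroken run of pyrimidines (C or T). The first 4 were chosen because they lie on long pyrimidine tracts. The other 4 were chosen for strong clusters, or clusters kept in a single condition, on shorter tracts.
PGK1: TTTTTCTTTTCTCTTTCCCCatcctttacg
RPS29B: TTCCTTTTCTTTCCacttcttttgtataag
NHP6A: ctctcctttctaTTCCTCTTTTCTCTactg
RPP2A: CCTCTTTTTTacggcgaccatactcttttt
CPR1: aatcaattcttataactaaCTCTTCCTacc
HSP42: atatttataataagcgttaaaaTTTCggca
TCP1: tccgaacgagaTTCTgtatctgcatgtaaa
TRX2: TTTTaaaaagaaactctattacatctatct
The PGK1 stretch (chrIII:139028-139057, plus strand) surrounds a mode 52 nt after the stop codon and holds a run of 20 pyrimidines. The RPS29B stretch (chrIV:340538-340567, minus strand) and the NHP6A stretch (chrXVI:665583-665612, minus strand) hold runs of 14, and that of RPP2A (chrXV:254695-254724, plus strand) a run of 10. CPR1 (chrIV:768392-768421, minus strand) holds a run of 8. The runs are 4 nt in HSP42 (chrIV:807784-807813, plus strand), TCP1 (chrIV:888924-888953, plus strand) and TRX2 (chrVII:912826-912855, minus strand). All 8 stretches lie outside annotated genes, since the R64 annotation has no untranslated regions.

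After-stop sites were a minority of the contacts of both LARPs, and a smaller one for Slf1. They made up 7.49% and 7.19% of the kept clusters in the Slf1 H2O2 libraries, 8.49% and 10.03% in untreated Slf1, 12.9% and 11.96% in Sro9 after H2O2, and 11.5% and 14.5% in untreated Sro9. The 4 Slf1 libraries all lay below the 4 Sro9 libraries. The mean was 8.30% for Slf1 and 12.7% for Sro9, a difference of -4.39 percentage points (two-sided exact permutation test over 8 libraries, p = 0.0286, which is the smallest that 4 against 4 allows, and 0.0442 after Benjamini-Hochberg adjustment over 17 tests). Without Sro9 untreated replicate 2 the difference was -3.81 points (exact permutation p = 0.0571), and with labels permuted within each condition the exact p was 0.0556, the smallest this permutation allows. For clusters of at least 20 reads the difference was -7.58 points (exact permutation p = 0.0286).

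The gap was smaller within mRNAs. Of the clusters in ORFs and after stop codons together, after-stop clusters were 10.9%, 12.7%, 13.4% and 13.2% in the Slf1 libraries and 14.8%, 13.7%, 13.5% and 16.9% in the Sro9 libraries, in the same order as above. The Slf1 and Sro9 values nearly meet at 13.4% and 13.5%. The difference was -2.17 points (exact permutation p = 0.0286, adjusted 0.0442). Without the clusters that overlap another gene or have a further place it was -0.952 points (exact permutation p = 0.457), and for clusters of at least 20 reads it was -5.81 points (exact permutation p = 0.0286). Leaving out single libraries gave -2.58 to -1.43 points, with an exact p over 0.05 without any 1 of the 4 Slf1 libraries or without Sro9 untreated replicate 2. By reads, after-stop clusters held 7.14% to 12.3% of mRNA cluster reads in Slf1 libraries and 12.8% to 17.2% in Sro9 libraries.

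H2O2 shifted these shares by less than the libraries of a dataset differed from each other for Sro9, at -0.540 percentage points (exact permutation p = 1.0). The Slf1 difference was -1.92 points, with both H2O2 libraries below both untreated ones, and 2 against 2 libraries cannot give a p below 0.333, its value here.

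**Figure D1:**
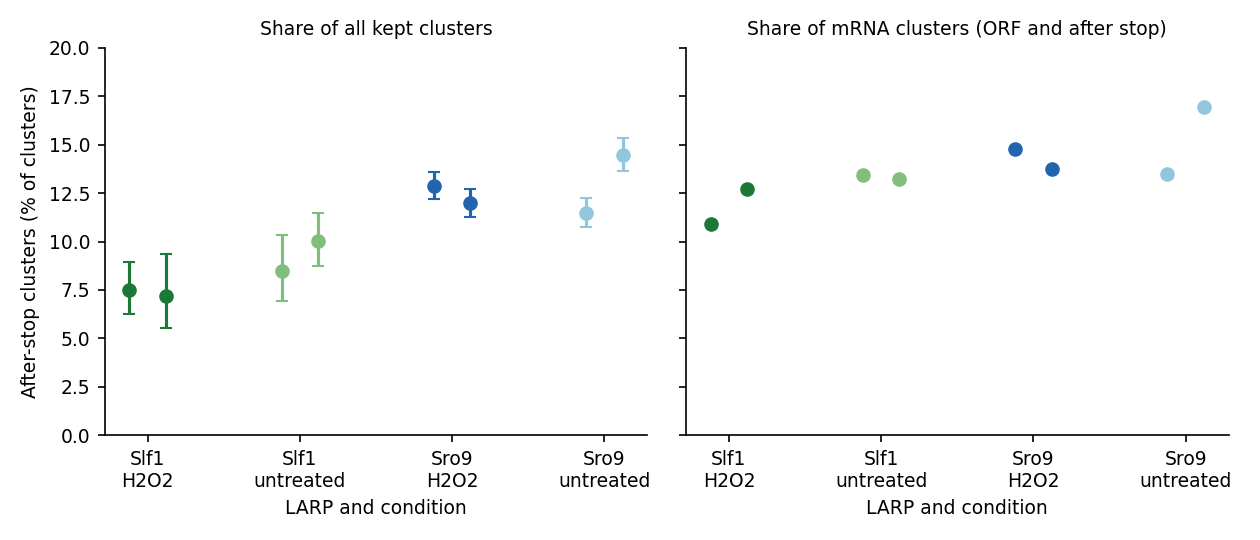
Share of clusters whose mode lies 1 to 200 nt after a stop codon, in percent, as 1 point per library for each LARP and condition, of all kept clusters (left, with 95% Wilson intervals for counting error) and of clusters in ORFs and after stop codons (right). All 4 Slf1 points lie below all 4 Sro9 points on the left, while on the right the closest Slf1 and Sro9 points are at 13.4% and 13.5%.

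Sites were spread through the first 75 nt after the stop codon and thinned out beyond. The median distance from the stop codon was 52 and 75 nt in Slf1 libraries after H2O2, 53.5 and 72 nt in untreated Slf1, 64 and 66 nt in Sro9 after H2O2, and 65 and 66 nt in untreated Sro9. Between 70.4% and 75.2% of a library's after-stop clusters lay within 100 nt of the stop codon and between 4.55% and 11.8% beyond 150 nt. The Slf1 medians fell on both sides of the Sro9 medians, with a difference of -2.13 nt (exact permutation p = 0.657) that was 6.13 nt for clusters of at least 20 reads.

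The density of modes places these sites beside those at the end of the ORF. Over the mRNAs with any cluster in a library, there were 0.836 to 2.24 modes per 1000 free positions in each 25 nt step up to 75 nt after the stop codon in Slf1 libraries, and 2.52 to 3.45 in Sro9 libraries. The last 50 nt of the same ORFs held 2.38 to 2.91 and 3.92 to 4.03 modes per 1000 positions for Slf1 and Sro9. From 151 nt to the end of the window the density was 0.212 to 0.477 and 0.684 to 1.00. In every library the density in each 25 nt step up to 75 nt after the stop codon was thus lower than in the last 50 nt of the ORF, and it was lowest at the far end of the window. Transcript ends were not used here, and their part in the decline was not tested. Between 7.65% and 21.1% of after-stop clusters reached back into the stop codon or the ORF.

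**Figure D2:**
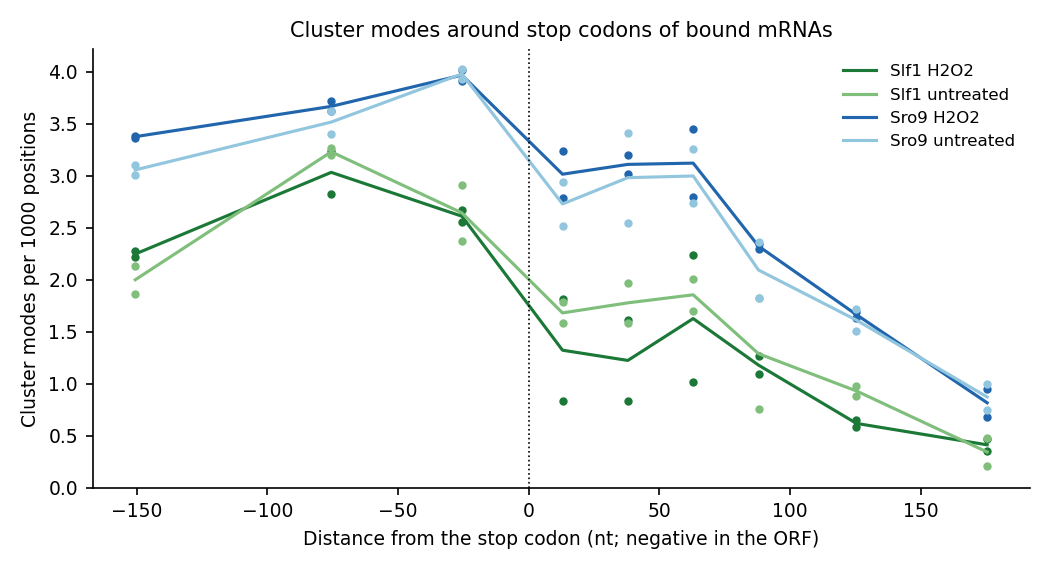
Cluster modes per 1000 free positions (y axis) by distance from the stop codon in nt (x axis, negative inside the ORF), with 1 point per library and a line through the mean of each dataset. In all 4 datasets the density after the stop codon is lower than in the last 50 nt of the ORF, and in the farthest 50 nt of the window it is at most 1.00 per 1000.

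Base composition separated after-stop clusters from ORF clusters in every library. The free positions of the hosts' windows after the stop codon already held 37.3% uridine and 14.1% guanine on average. ORF clusters were not compared with the ORF sequence around them. The tests against ORF clusters therefore cannot separate a feature of the sites from a difference between the regions. Uridine made up 36.7% to 40.1% of after-stop cluster sequence and 28.7% to 29.5% of ORF cluster sequence, a difference of 8.92 percentage points (38.0% and 29.1% on average, higher in 8 of 8 libraries, two-sided exact sign-flip permutation p = 0.00781, the smallest that 8 pairs allow, adjusted 0.0190). Guanine was lower in proportion, at 14.1% to 16.8% after stop codons and 22.4% to 25.2% in ORFs (difference -8.67 points, same exact p). Cytosine differed by -0.819 points (exact permutation p = 0.0156, adjusted 0.0332) and adenine by 0.563 points (exact permutation p = 0.0391, adjusted 0.0511). RNase T1 cuts after G, and the last base of the cluster was G in 36.1% to 48.4% of after-stop clusters and 19.0% to 41.9% of ORF clusters, higher after stop codons in each library; the part of this cut in the composition was not tested.

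Set against their own surroundings, the sites held less adenine and more cytosine. Cytosine was 21.3% on average in the clusters and 16.6% in the free positions of the same hosts' 200 nt windows (difference 4.76 points, higher in 8 of 8 libraries, exact sign-flip permutation p = 0.00781, adjusted 0.0190). Adenine was 25.7% in the clusters and 32.1% in the windows (difference -6.43 points, same exact p). Guanine was 15.1% in the clusters and 14.1% in the windows (difference 0.970 points, exact permutation p = 0.0234, adjusted 0.0442). Uridine was 38.0% in the clusters and 37.3% in the windows, a difference of 0.707 points (exact permutation p = 0.0391, adjusted 0.0511) that became -0.334 points when the window was 100 nt. The uridine share of after-stop clusters was 38.7% for Slf1 and 37.2% for Sro9, a difference of 1.49 points (exact permutation p = 0.143), and 2.44 points (exact permutation p = 0.0286) for clusters of at least 20 reads.

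Pyrimidine tracts were more frequent at the sites than in the windows around them. A run of at least 8 pyrimidines was present in 26.3% of the 31 nt windows centred on after-stop modes. It was present in 14.7% of all 886886 windows of that length in the 200 nt after stop codons, in 17.3% of the windows in hosts, and in 23.5% of the host windows centred on a uridine. In Slf1 libraries the share was 37.6%, 37.3%, 37.5% and 31.7%, against 22.9%, 25.3%, 21.4% and 21.2% in the windows of the same libraries' hosts. In Sro9 libraries it was 25.6%, 25.1%, 26.1% and 24.6%, against 18.4%, 18.7%, 18.8% and 17.8%. The lowest Slf1 value lay above the highest Sro9 value, and the Slf1 hosts' own windows were also richer in such runs. The run and the motifs were searched on the sense strand after the base composition had been seen, so these shares are descriptions, and a site found in several libraries counts in each.

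Of the 6 short motifs searched, the 2 that contain C were more frequent at the sites than in either set of windows. TTCCC was in 6.32% of the windows at after-stop modes, against 2.19% of all windows and 3.06% of uridine-centred host windows, and CCTCC in 2.29%, against 0.889% and 0.996%. TTTTT, the letters of a plain uridine run, was in 19.2%, against 17.3% and 26.5%, so it lay above all windows and below the uridine-centred ones. TATATA, the letters of a yeast efficiency element, was lower at the sites, in 7.59%, against 9.49% and 10.9%. AATAAA, the letters of a polyadenylation element, was in 5.23%, against 5.37% and 4.11%, and TGTANATA, the letters bound by the Puf3 protein, in 2.15%, against 2.15% and 2.17%. The motifs made up only of pyrimidines can lie inside a pyrimidine run and overlap each other, and the adenine-containing ones can share bases. Around the mode, uridine was highest 6 nt upstream, at 42.6%, against 34.5% at the mode itself.

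**Figure D3:**
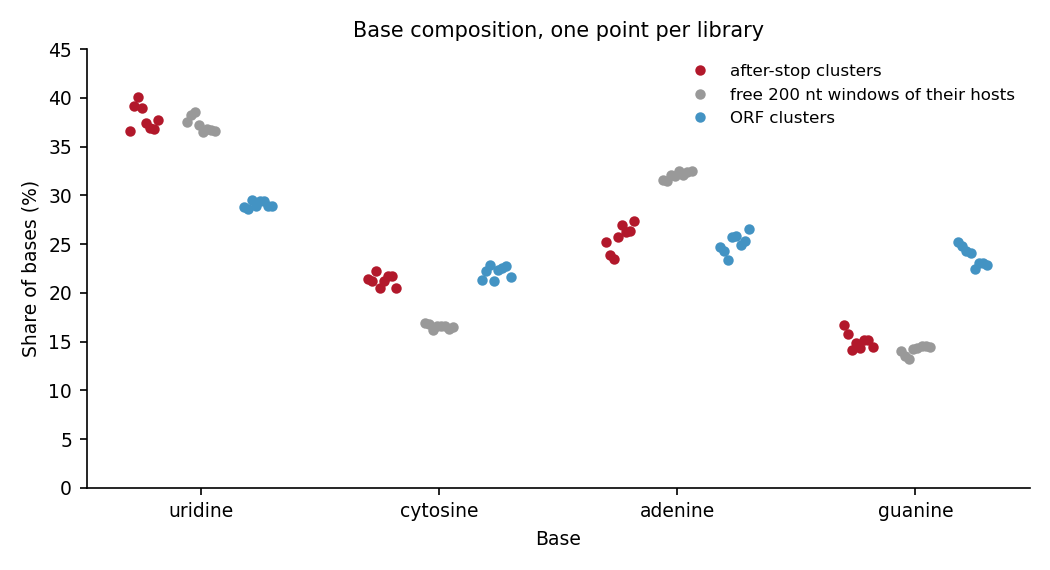
Share of each base (y axis, percent) in after-stop clusters, in the free positions of the 200 nt windows of their hosts, and in ORF clusters, with 1 point per library. Uridine is at 36.7% to 40.1% in after-stop clusters and at 28.7% to 29.5% in ORF clusters, and cytosine is higher in after-stop clusters than in their hosts' windows in all 8 libraries.

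After-stop clusters were slightly shorter than ORF clusters, with a median of 26.5 nt against 30.5 nt averaged over libraries (difference -4 nt, shorter in 8 of 8 libraries, exact sign-flip permutation p = 0.00781, adjusted 0.0190). Their strength did not differ detectably: the median log2 read count was 3.78 after stop codons and 3.90 in ORFs (difference -0.13, exact permutation p = 0.25). Conversion events per read were 0.859 after stop codons and 0.886 in ORFs (difference -0.0277, exact permutation p = 0.0938). For clusters of at least 20 reads both differences turned positive, at 0.15 on the log2 scale and 0.0563 conversions per read (exact permutation p = 0.00781 each).

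Most positions were found in a single library, and those of Slf1 were largely also positions of Sro9. With modes up to 10 nt apart joined, the 4191 clusters marked 2544 places, of which 1659 came from 1 library and 4 from all 8. Of 321 places with an Slf1 cluster, 221 (68.8%) also held a Sro9 cluster, which is 9.04% of the 2444 Sro9 places. By host the shares were 90.9% of 242 Slf1 hosts and 15.99% of 1376 Sro9 hosts. Where both LARPs were found on a host, the nearest Sro9 mode lay a median of 2 nt from the Slf1 mode.

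More hosts repeated between replicates in Sro9 than in Slf1 libraries. A cluster in both replicates was found on 29 hosts for Slf1 after H2O2, 58 for Slf1 untreated, 499 for Sro9 after H2O2 and 410 for Sro9 untreated, and 607 hosts met this in at least 1 dataset. Of the 29 Slf1 hosts after H2O2, 28 (96.6%) were among the 499 Sro9 hosts, which is 5.61% of these. Of the 58 untreated Slf1 hosts, 52 (89.7%) were among the 410 Sro9 hosts (12.7%). For Sro9, 304 hosts were shared between the conditions, 60.9% of the H2O2 hosts and 74.1% of the untreated hosts. For Slf1, 20 were shared, 69.0% and 34.5%.

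The places seen in all 8 libraries were after PGK1 (modes 50 to 60 nt from the stop codon), RPS29B (71 to 82 nt), DRE2 (125 nt) and MTC7 (88 to 90 nt). All 8 DRE2 clusters at 125 nt had a further place in the genome and the MTC7 clusters overlapped a tRNA gene, so these places cannot be assigned to the mRNA from the clusters alone. Places found in 7 libraries followed the genes of the Ran GTPase GSP1 (35 to 38 nt), the glycerol-3-phosphate dehydrogenase GPD2 (53 to 57 nt), the aminopeptidase APE2 (68 to 73 nt), the eisosome protein NCE102 (105 to 117 nt), the cyclophilin CPR1 (103 to 106 nt), the ribosomal proteins RPP2A (91 to 94 nt) and RPS23A (82 to 105 nt), and FTR1, YAH1, YCH1 and ZPR1. All 7 FTR1 clusters, 4 of the ZPR1 clusters and 3 of the YAH1 clusters had a further place or overlap. On the level of hosts, 17 genes had a cluster in all 8 libraries, among them RLI1, the ribosome recycling factor, with modes as close as 7 nt to the stop codon.

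HSP42, a small heat shock protein that gathers misfolded proteins, was the leading Slf1 host. Its after-stop clusters held 224 and 187 reads in Slf1 after H2O2, 179 and 214 in untreated Slf1, 730 and 532 in Sro9 after H2O2, and 1091 and 391 in untreated Sro9. This was 9.35% and 12.6% of all after-stop reads of the Slf1 H2O2 libraries, 7.91% and 5.43% in untreated Slf1, and 1.31% to 3.31% in Sro9 libraries. The HSP42 window did not differ detectably between Slf1 and Sro9 in the edgeR test. Its log2 fold change was 0.96 ± 0.56 SE after H2O2 (edgeR adjusted p = 0.236) and 0.38 ± 0.56 SE untreated (edgeR adjusted p = 0.690). The modes lay 56 to 61 nt after the stop codon in 6 libraries and at 36 nt in the other 2, which are Sro9 H2O2 replicate 1 and Sro9 untreated replicate 1. ORF clusters of HSP42 held 0 to 11 reads in Slf1 libraries and 27 to 199 in Sro9 libraries, so 88.7% of its mRNA cluster reads lay after the stop codon. Its mRNA level in WT cells was far higher after H2O2, with 1579 and 1588 CPM, against 4.08 and 79.3 CPM untreated. CPM are counts scaled to an equal total of coding counts outside the rRNA locus. These levels are from untagged cells, and HSP42 mRNA in the TAP strains was not analysed. The HSP42 after-stop reads in the 2 conditions overlapped for both LARPs (edgeR log2 fold change -0.28 ± 0.56 SE for Sro9 and 0.30 ± 0.56 SE for Slf1, adjusted p = 1.0 for both).

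PGK1, the glycolytic phosphoglycerate kinase, carried the strongest single after-stop cluster, with 2229 reads in Sro9 H2O2 replicate 1. Its after-stop reads were 32 and 18 in Slf1 after H2O2, 151 and 224 in untreated Slf1, 2305 and 917 in Sro9 after H2O2, and 1024 and 1966 in untreated Sro9. Both H2O2 libraries of Slf1 lay below both untreated ones, at a log2 fold change of -2.68 ± 0.75 SE (edgeR quasi-likelihood test, adjusted p = 0.252; DESeq2 adjusted p = 0.00454), while those of Sro9 overlapped (-0.26 ± 0.70 SE). The PGK1 mRNA itself did not differ detectably in WT total RNA (0.44 ± 0.80 SE, edgeR adjusted p = 0.704). A second Sro9 cluster with 8 to 76 reads lay 130 to 131 nt after the stop codon in all 4 Sro9 libraries.

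NHP6A, which encodes a high-mobility group protein that bends DNA in chromatin, had almost all its kept cluster reads after its stop codon. Its after-stop reads were 84 and 40 in Slf1 after H2O2, 107 and 141 in untreated Slf1, 2085 and 825 in Sro9 after H2O2, and 900 and 769 in untreated Sro9. An ORF cluster was kept in 1 library, with 40 reads, so 99.2% of its mRNA cluster reads were after-stop reads. The strongest mode was at 107 nt in the 4 Sro9 libraries and in both untreated Slf1 libraries, and at 82 and 84 nt in the Slf1 H2O2 libraries. With 6.56 log2(FPKM + 1) in untreated WT cells, NHP6A was a moderately expressed mRNA among far more abundant hosts such as PGK1 at 12.4.

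TCP1, a subunit of the cytosolic chaperonin that folds actin and tubulin, carried a strong Sro9 site where no Slf1 cluster was kept. Its cluster 13 to 17 nt after the stop codon held 757 and 725 reads in Sro9 after H2O2 and 761 and 1012 in untreated Sro9, and no cluster was kept there in the 4 Slf1 libraries. No fold change is given against libraries at 0. In the fits TCP1 had adjusted p = 0.0794 after H2O2 and 0.0905 untreated (edgeR), against 3.56e-06 and 1.54e-06 (DESeq2), for Slf1 against Sro9. Its ORF clusters held 25 to 91 reads in Sro9 libraries.

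Ribosomal protein mRNAs held the most hosts of the gene groups examined. RPP2A, a component of the ribosomal stalk, had after-stop reads of 34 and 84 in Slf1 after H2O2, 125 and 154 in untreated Slf1, 897 and 573 in Sro9 after H2O2, and 790 and 994 in untreated Sro9. RPS29B, of the small subunit, had 21 and 29, 35 and 68, 417 and 187, and 398 and 499 in the same order. In both, the Slf1 H2O2 libraries lay below the untreated ones, and neither passed the test (edgeR adjusted p = 0.732 and 1.0). RPS20, also of the small subunit, behaved differently for Sro9: it had 814 and 596 after-stop reads after H2O2, against 114 and 29 untreated, while its ORF clusters held 2368 and 1568 reads after H2O2, against 2439 and 595 untreated. This was a log2 fold change of 3.29 ± 0.83 SE, with an adjusted p of 1.0 from edgeR and 4.33e-05 from DESeq2. In Slf1 the RPS20 values were 48 and 57 after H2O2 and 95 and 113 untreated, in the opposite order.

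The positions of the RPS20 modes also differed for Sro9. The strong modes at 56 to 58 nt after H2O2 had no counterpart within 10 nt in the untreated Sro9 libraries. There, modes lay at 77, 153 and 156 nt. The strong H2O2 clusters were 75 and 68 nt long, the untreated cluster at 77 nt was 41 nt long, and their overlap was not tested. Slf1 modes lay at 55, 57 and 72 nt untreated and at 57 and 2 nt after H2O2. RPL41B, whose product is the smallest ribosomal protein, had 15 and 43 after-stop reads in Slf1 after H2O2, 41 and 25 in untreated Slf1, 732 and 663 in Sro9 after H2O2, and 466 and 457 in untreated Sro9. RPL6B, of the large subunit, had 43 and 64, 48 and 60, 197 and 40, and 220 and 251. Both genes have a paralogue, and no after-stop cluster of either had a further place in the genome.

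CPR1, a cyclophilin, had a mode at 103 to 106 nt in 7 libraries, with after-stop reads of 71 and 52 in Slf1 after H2O2, 62 and 98 in untreated Slf1, 805 and 812 in Sro9 after H2O2, and 419 and 0 in untreated Sro9. The 2 untreated Sro9 libraries thus disagreed. CCW12, a cell wall mannoprotein and among the most abundant hosts, differed in where the reads lay: in Slf1 libraries its ORF held 177 to 376 reads and its after-stop clusters 35 to 125, while in Sro9 libraries after-stop clusters held 158 to 339 reads and no ORF cluster was kept. HOR7, a small protein named for its response to high osmolarity, had 148 and 40 after-stop reads in Slf1 after H2O2, 0 and 47 in untreated Slf1, 253 and 86 in Sro9 after H2O2, and 199 and 77 in untreated Sro9.

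ATF2 and DRE2 ranked among the leading Slf1 hosts through doubtful clusters. ATF2, an alcohol acetyltransferase gene, had clusters of 14 and 16 nt in 1 Slf1 H2O2 library (104 reads) and 1 untreated Sro9 library (302 reads), with 62 and 2 further places within 2 mismatches. DRE2, which takes part in cytosolic iron-sulfur cluster assembly, had 47 to 172 after-stop reads in Slf1 libraries and 81 to 278 in Sro9 libraries, of which the clusters at 125 nt, with 4 further places each, held 40 to 167 and 28 to 136.

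**Figure D4:**
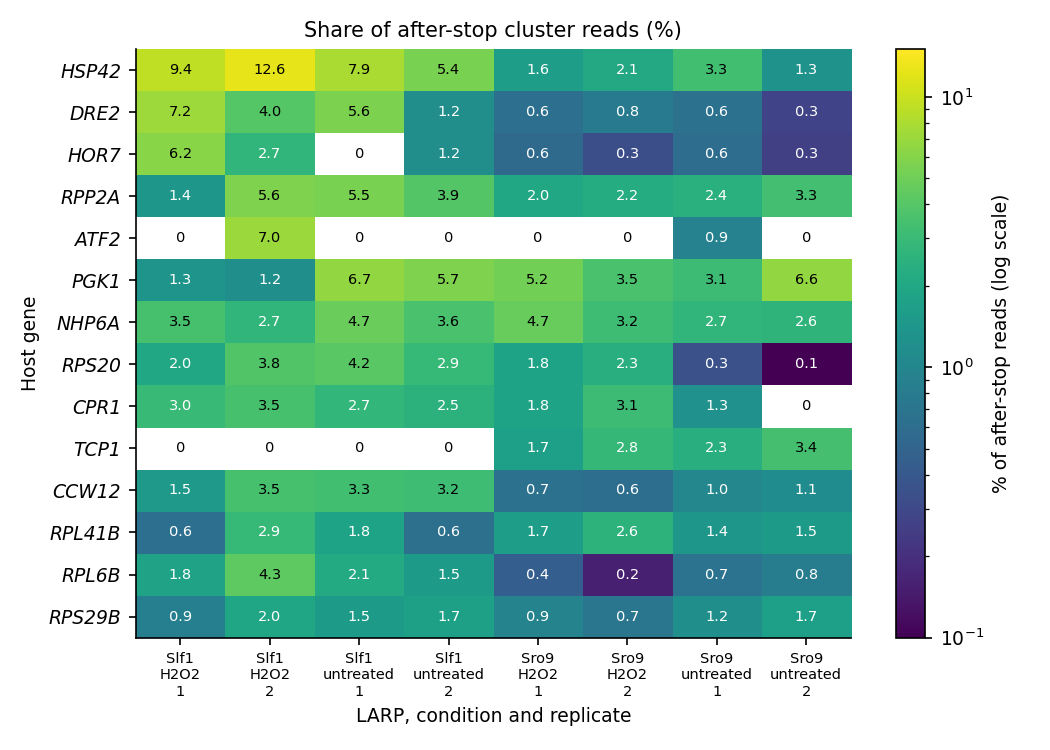
Share of a library's after-stop reads (percent, log colour scale, values printed) on the 14 hosts that lead a dataset or occur in the most libraries, with 1 column per library. HSP42 takes 5.43% to 12.6% in Slf1 libraries and 1.31% to 3.31% in Sro9 libraries, and TCP1 is at 0 in the 4 Slf1 libraries and at 1.71% to 3.40% in the Sro9 libraries.

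Slf1 libraries had fewer hosts, and the 10 leading ones held a larger share of the after-stop reads. There were 49 to 164 hosts in Slf1 libraries and 635 to 897 in Sro9 libraries, and the 10 leading hosts held 34.7% to 55.5% of after-stop reads in Slf1 libraries and 23.2% to 25.9% in Sro9 libraries. Because 10 hosts are a larger part of a shorter host list, this gap is no measure of concentration by itself. Hosts were abundant and short mRNAs in each library. Their median level in WT total RNA of the same condition was 7.30 to 10.3 log2(FPKM + 1), against 5.78 to 9.07 for mRNAs with ORF clusters only, with a mean difference of 1.83 (higher in 8 of 8 libraries, exact sign-flip permutation p = 0.00781, adjusted 0.0190). Their median coding length was 615 to 873 nt, against 1023 to 1377 nt, with a mean difference of -484 nt (shorter in 8 of 8 libraries, same exact p). A longer ORF offers more positions for an ORF cluster, while the after-stop window has a fixed length. The length test therefore cannot separate short hosts from a long comparison set. With all libraries pooled, the median was 930 nt for hosts, 1435.5 nt for mRNAs with ORF clusters only and 1194 nt for all coding genes. Hosts were thus also shorter than all coding genes, as a description with no test. Between 36.7% and 73.6% of hosts also had an ORF cluster in the same library. Stop codons were TAA in 51.4% of hosts, against 48.2% of mRNAs with ORF clusters only and 47.6% of all coding genes.

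Of 138 cytosolic ribosomal protein genes, 127 had an after-stop cluster in some library. A cluster in both replicates was found for 10 in Slf1 after H2O2, 19 in untreated Slf1, 89 in Sro9 after H2O2 and 86 in untreated Sro9. As a share of the ribosomal protein mRNAs bound anywhere, in the ORF or after the stop codon, in both replicates, this was 15.9%, 20.4%, 66.9% and 63.7%, against 14.9%, 19.8%, 25.98% and 24.97% of all mRNAs bound. These shares were above those of all bound mRNAs in the Sro9 datasets and near them in the Slf1 datasets, as counts with no test. They held 25.4% to 33.6% of after-stop reads across the 8 libraries.

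Antioxidant enzymes had their most hosts in Sro9 after H2O2. Of 37 genes, 0 had a cluster in both replicates of Slf1 after H2O2, 1 of untreated Slf1 (GND1), 11 of Sro9 after H2O2 and 5 of untreated Sro9. This was 35.5% of the bound antioxidant mRNAs in Sro9 after H2O2 and 20.8% in untreated Sro9, beside 25.98% and 24.97% of all bound mRNAs, so the share was above that background after H2O2 and below it untreated. In Slf1 it was 0 of 13 bound antioxidant mRNAs after H2O2 and 1 of 7 untreated, beside 14.9% and 19.8% of all bound mRNAs. Antioxidant mRNAs held 2.46% and 2.55% of after-stop reads in Sro9 after H2O2, against 0.413% and 0.626% untreated. In Slf1 the shares were 4.47% and 0% after H2O2 and 0.309% and 0.381% untreated, so the Slf1 H2O2 replicates disagreed. TRX2, a cytosolic thioredoxin, had 172 and 38 after-stop reads in Sro9 after H2O2 and no after-stop cluster in the other 6 libraries (DESeq2 adjusted p = 0.0366 and edgeR 1.0 for H2O2 against untreated in Sro9). Its ORF reads in Sro9 were also higher, at 1390 and 419 after H2O2 and 72 and 51 untreated. TRX2 mRNA rose in WT total RNA by 3.33 ± 0.51 SE (edgeR adjusted p = 0.000165). Whether its after-stop reads rose beyond its mRNA was not tested. TSA1, the major peroxiredoxin, had 170 and 129 after H2O2 and 25 and 56 untreated in Sro9, and its H2O2-induced paralogue TSA2 had 42 and 26 in Sro9 after H2O2 only. ORF clusters held far more reads on these mRNAs, and after-stop reads were 8.72%, 4.55% and 4.84% of the mRNA cluster reads of TRX2, TSA1 and TSA2. GRX2, a glutaredoxin with up to 1218 ORF reads, had a single after-stop cluster of 5 reads that had 85 further places.

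The other groups are given in the order Slf1 after H2O2, untreated Slf1, Sro9 after H2O2 and untreated Sro9, with their hosts in both replicates as a share of the group's mRNAs bound in both replicates. The same share of all bound mRNAs was 14.9%, 19.8%, 25.98% and 24.97%. Histone genes (the core histones and the H2A variant HTZ1) had 0, 0, 8 and 6 hosts of 9 genes, which was 88.9% and 66.7% of those bound by Sro9. Only 2 histone mRNAs after H2O2 and 4 untreated were bound anywhere in both Slf1 replicates. Translation factors had 1, 4, 19 and 18 hosts of 45 genes, or 14.3%, 30.8%, 48.7% and 50% of those bound, with RLI1 in all 4 datasets and the elongation factor genes TEF1, EFT2 and EFB1 in 3. Glycolysis and fermentation had 2, 5, 11 and 8 of 24, or 11.8%, 29.4%, 47.8% and 36.4%, with PGK1 and GPD2 in all 4. These groups were above all bound mRNAs in both Sro9 datasets. Cell wall proteins, with 2, 5, 8 and 9 of 30, had the highest shares in Slf1, at 40% of 5 and 55.6% of 9 bound mRNAs, against 32% and 37.5% in Sro9. Chaperones had 2, 2, 7 and 6 of 29, or 25%, 18.2%, 25.9% and 30%. Mitochondrial ribosomal proteins had 0, 0, 8 and 3 of 67, which was 40% and 21.4% of those bound by Sro9. None of the mitochondrial ribosomal protein mRNAs was bound anywhere in both replicates of an Slf1 dataset. All of these are counts with no test. RPS0A, GCD11 and OLA1, a ribosomal protein, a subunit of initiation factor eIF2 and an Obg-like ATPase, were bound heavily in their ORFs, and after-stop reads were 0.286%, 0.139% and 1.88% of their mRNA cluster reads. SRO9 and SLF1 themselves had no after-stop cluster.

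After-stop reads were compared between groups in 1 model of 1702 features, the ORFs and after-stop windows with enough reads, of which 344 were after-stop windows. The edgeR quasi-likelihood test with Benjamini-Hochberg adjustment called 0 after-stop windows for Slf1 against Sro9 after H2O2, for Slf1 against Sro9 untreated, and for H2O2 against untreated in Slf1 and in Sro9, beside 0% of all features higher and 0% lower in each. The smallest adjusted p values were 0.0794, 0.0905, 0.210 and 1.0. At an unadjusted p under 0.05 there were 154 (44.8%, against 41.8% of all features), 107 (31.1%, against 33.0%), 27 (7.85%, against 9.05%) and 11 (3.20%, against 3.53%) after-stop windows. These shares were close to those of all features, and the median log2 fold changes of after-stop windows were -6.79, -5.12, 0.00 and -0.02, beside -6.53, -3.37, 0.00 and 0.02 for all features; many windows had no Slf1 cluster, so these medians are no measure of size. Leaving out untreated Slf1 replicate 1 or 2 gave 60 and 50 calls for Slf1 against Sro9 after H2O2.

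DESeq2 called more. For Slf1 against Sro9 after H2O2 it gave 3 after-stop windows higher and 103 lower (all features, 1.35% higher and 29.8% lower), and untreated 2 higher and 36 lower (1.29% and 12.2%). For H2O2 against untreated it gave 2 higher and 21 lower in Slf1 (2.12% and 5.52%), and 2 higher and 0 lower in Sro9 (0.999% and 0.0588%). The 2 in Sro9 were RPS20 and TRX2. For the difference between the LARPs in their response to H2O2, edgeR called 0 windows, with 25 at an unadjusted p under 0.05 (7.27%, against 6.17% of all features), and DESeq2 called 10, all lower in Slf1 (0.529% of all features higher and 3.11% lower).

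Total RNA showed how the host mRNAs themselves responded. Total counts ran from 3323216 to 21447260 per library, but reads of the rRNA locus took an uneven part, and counts on coding genes outside it ran from 146661 in slf1Δ H2O2 replicate 1 and 210158 in sro9Δ untreated replicate 1 to 18683398. SLF1 had 0 counts in the 4 slf1Δ libraries and SRO9 had 0 or 1 in the 4 sro9Δ libraries, against 14 to 263 and 91 to 3187 in WT. After H2O2, 144 of 603 tested hosts rose and 109 fell in WT cells (23.9% and 18.1%, beside 19.4% and 16.2% of all 7375 features; edgeR quasi-likelihood test with Benjamini-Hochberg adjustment). The host shares were thus a little above those of all features in both directions, as a description. Of 5597 coding genes, edgeR called 19.9% higher and 18.4% lower, so the hosts were above these only for rises. DESeq2 gave 147 higher and 146 lower (16.7% and 16% of all features). With WT H2O2 replicate 1 left out, 102 hosts were called in all, and with replicate 2 left out, whose coding counts were 653823, 186.

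Hosts of different function moved in different directions. Of 100 tested hosts among cytosolic ribosomal proteins, 0 rose and 31 fell, with a median log2 fold change of -1.14 (60 were under an unadjusted p of 0.05). Outside them, 144 of 503 rose and 78 fell. Of 13 antioxidant hosts 11 rose, with a median of 2.56, led by OYE3 (8.01 ± 0.37 SE), an NADPH oxidoreductase, and TSA2 (7.86 ± 0.57 SE). Of 8 mitochondrial ribosomal protein hosts 5 rose (median 1.05), of 8 chaperones 4 rose, HSP42 among them at 4.96 ± 0.86 SE, and of 8 histone hosts 4 fell (median -1.17). Of 21 translation factor hosts 6 fell, among them EFB1, PAB1 and RLI1. The glycolysis and fermentation hosts (median -0.05) gave 3 that rose, GLK1, TDH1 and GPD2, and the cell wall hosts gave 1, YPS1. DESeq2 called 56 ribosomal protein hosts and 11 translation factor hosts lower, 12 antioxidant hosts higher, and 1 cell wall host in each direction. In the whole lists, edgeR called 38 of 138 ribosomal protein genes, 18 of 45 translation factors and 4 of 9 histones lower and none of them higher. It called 29 of 37 antioxidant enzymes, 32 of 67 mitochondrial ribosomal proteins and 17 of 29 chaperones higher, with 1 lower in each. The lists and hosts were chosen with earlier results in view, so these counts describe the hosts and test no list.

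The hosts with the smallest adjusted p held few after-stop reads beside the leading hosts. The median after-stop cluster of the Sro9 libraries held 12 to 18 reads. OYE3 had 579 and 560 CPM in WT after H2O2, against 1.26 and 2.15 untreated, and 53 and 24 after-stop reads in Sro9 after H2O2, mostly in clusters with further places. ECM4, a glutathione transferase, and CYC1, cytochrome c isoform 1, rose by 4.73 ± 0.30 SE and 4.28 ± 0.28 SE and had 13 to 22 after-stop reads, also in Sro9 after H2O2 alone, where both ECM4 clusters had 29 further places. Of the hosts that fell, RRP12, a ribosome biogenesis factor, changed by -3.34 ± 0.46 SE, HPT1, of purine salvage, by -3.29 ± 0.48 SE, and NOP58, of box C/D small nucleolar ribonucleoproteins, by -2.57 ± 0.39 SE. Their after-stop reads were 0 to 36 in each Sro9 library and 0 in Slf1 libraries.

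**Figure D5:**
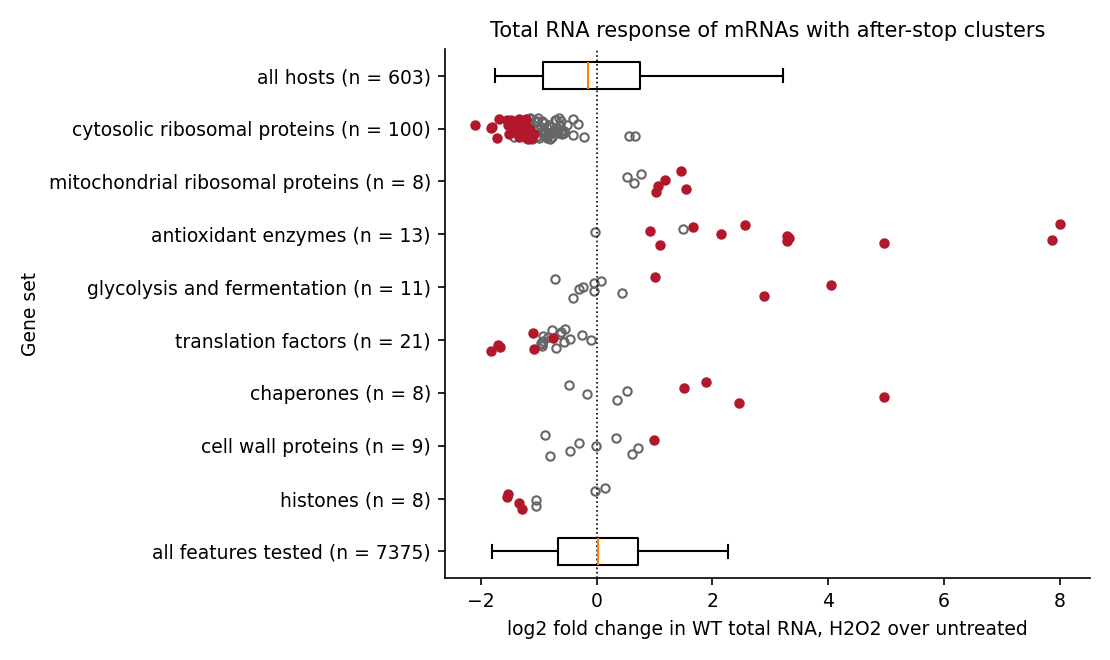
Log2 fold change in WT total RNA, H2O2 over untreated (x axis), for hosts with an after-stop cluster in both replicates of a dataset, by gene group (y axis); filled red points passed an adjusted p of 0.05 in the edgeR test and open grey points did not. Boxes for all 603 hosts and all 7375 features show the median and quartiles with whiskers at the 5th and 95th percentiles; the medians are -1.14 for the cytosolic ribosomal proteins and 2.56 for the antioxidant enzymes.

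Deletion of either LARP gene changed few host mRNAs. In slf1Δ cells after H2O2, 1 of 603 hosts was higher than in WT and 3 were lower (edgeR; 0.149% and 0.556% of all features), and 73 were under an unadjusted p of 0.05 (12.1%, against 14.1% of all features). DESeq2 gave 7 higher and 8 lower (0.732% and 1.32% of all features). TMA10, which encodes a protein that associates with ribosomes, had 13.6 and 14.4 CPM in slf1Δ, against 178 and 78.0 in WT (-2.90 ± 0.47 SE, edgeR adjusted p = 0.0108), and its after-stop clusters held 158 and 56 reads in Sro9 after H2O2. ECM4 (-1.68 ± 0.27 SE) and OYE3 (-1.45 ± 0.27 SE) were the other 2 that were lower. ATG41, an autophagy gene, was higher (1.34 ± 0.25 SE). These calls depended on single libraries: without either slf1Δ H2O2 library or without WT H2O2 replicate 1, 0 hosts were called, without WT H2O2 replicate 2 the count was 1, without either slf1Δ untreated library 2, and without WT untreated replicate 1 or 2 it was 37 and 38.

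In untreated slf1Δ cells, 1 host was higher, MRPS12 of the mitochondrial small ribosomal subunit, with 108 and 106 CPM in slf1Δ, against 15.7 and 24.5 in WT (2.53 ± 0.37 SE, edgeR adjusted p = 0.00679; 0.0678% of all features higher and 0.0814% lower). DESeq2 gave 4 hosts higher and 2 lower (0.447% and 0.312% of all features). In untreated sro9Δ cells the single host called was ATG41, with 76.1 and 54.5 CPM in sro9Δ, against 11.3 and 7.44 in WT (2.63 ± 0.30 SE, edgeR adjusted p = 0.000572; 0.136% of all features higher and 0.0814% lower). DESeq2 gave 5 hosts higher and 2 lower (0.583% and 0.258% of all features). In sro9Δ cells after H2O2 edgeR called 0 hosts, with 54 under an unadjusted p of 0.05 (8.96%, against 8.50% of all features), beside 0% of all features higher and 0.0407% lower. DESeq2 called 1 host, which was higher (0.176% of all features higher and 0.149% lower). The untreated counts moved with single libraries. Without WT untreated replicate 2, 88 hosts were called in slf1Δ and 73 in sro9Δ, and without WT untreated replicate 1, 8 and 1. Without replicate 2 of untreated slf1Δ or of untreated sro9Δ the count was 0. For sro9Δ after H2O2 it was 3 without WT untreated replicate 1 or 2.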

How the data were processed

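Duplicate PAR-CLIP libraries of Slf1-TAP and Sro9-TAP cells and duplicate total RNA libraries of untagged slf1Δ, sro9Δ and WT cells were used, each with and without H2O2. Adaptors had been removed from the PAR-CLIP reads with Trim Galore, the reads placed on R64 (sacCer3) by Bowtie 1.2.0 with up to 2 mismatches, and clusters called by the authors in PARalyzer. The deposited tables give each cluster's read and conversion counts, its sequence, its mode and a mode score, which the authors' caller computes as a fraction of signal over signal plus background and which was not used further. For total RNA, rRNA was depleted, strand-specific libraries were mapped with Bowtie, and the authors deposited featureCounts counts per gene. The 8 total RNA libraries of the TAP strains were not analysed here.

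Clusters were assigned to genes with the R64 annotation, with a mode inside any annotated gene on either strand left out. All 36054 deposited cluster sequences matched the genome at their coordinates. Wilson intervals (95%) cover counting error only. Values per library were compared by exact permutation tests over libraries, two-sided, with 17 of them adjusted together. With 2 libraries per group, p-values rest on the spread between these samples. In the edgeR fits they also depend on libraries outside the 2 groups compared, as the calls without single libraries show. Cluster reads per ORF and per after-stop window, and gene counts, were tested with edgeR 4.0.16 (quasi-likelihood, TMM scaling, Benjamini-Hochberg adjustment over all features, 0.05), with DESeq2 1.42.0 as an alternative, in R 4.3.3. The rest was computed in Python 3.11.15. On simulated counts the edgeR step recovered 82% of 200 changed features (absolute log2 change 2) for Sro9 H2O2 against untreated, among 1702 features, and 83% for WT total RNA, among 7375. In the real Sro9 fit the after-stop windows had a median SE of 1.56 on the log2 scale. The 82% is therefore no measure of the power for these windows. mRNA levels are log2(FPKM + 1), and CPM and FPKM leave out 19 coding genes within 2000 nt of the rRNA genes. Further places of a cluster were sought with 2 mismatches.

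The members, gene lists and named genes were chosen with earlier results of these data known. Named hosts are the 5 with the largest mean share of after-stop reads in each dataset, the 10 found in the most libraries, the 3 with the smallest adjusted p in each direction of each total RNA comparison (the same rule gave none for PAR-CLIP reads, where edgeR called 0 windows), and 10 genes named by the study or earlier results. Other genes in the text were chosen after their values were seen. Replicates of the same number in both conditions did not deviate together (correlations of -0.0954 and 0.000485 for PAR-CLIP, -0.137, -0.0442 and 0.194 for total RNA). The methods describe split cultures for total RNA, so a fit with the replicate number as a block was tried for both. Other alternatives were a read minimum of 20, a window of 100 nt, genes on the same strand only, no filter on low counts, library sizes from all kept clusters, and leaving out each library. Leaving out overlapping or repeated clusters, the denominator of mRNA clusters and the hosts' own windows were added after seeing the data.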

Additional observations from a re-analysis of the deposited data

How the results depend on the processing

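A read minimum of 20 turned several signs. It gave 6.13 nt for the median distance of Slf1 minus Sro9, 1.0 nt for that of H2O2 minus untreated in Sro9, 0.794 points for the after-stop share of H2O2 minus untreated in Sro9, and, for after-stop minus ORF clusters, 0.0563 conversions per read, 0.15 log2 reads and -0.440 points of adenine. The after-stop share of Slf1 minus Sro9 was then -7.58 points of kept clusters and -5.81 of mRNA clusters, the uridine share 2.44 points, and the hosts in both replicates were 12 and 21 for Slf1 after H2O2 and untreated and 201 and 183 for Sro9. A window of 100 nt gave 4.63 nt for the distance of Slf1 minus Sro9, 1.0 nt for H2O2 minus untreated in Sro9, -0.0524 conversions per read, -1.41 points for the share of mRNA clusters and -0.334 points for uridine against the hosts' windows. The same-strand reading gave -2.11 points for the share of mRNA clusters. Without overlapping or repeated clusters (added after seeing the data) that share differed by -0.952 points, conversions per read by -0.0568, and the distance of H2O2 minus untreated in Slf1 by -1.5 nt, with 35 hosts in both untreated Slf1 replicates. Permuting within conditions left -4.39 and -2.17 points for the 2 shares of Slf1 minus Sro9, with an exact p of 0.0556, the smallest this permutation allows.

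DESeq2 called 38 after-stop windows for Slf1 against Sro9 untreated, 106 after H2O2, 23 for H2O2 against untreated in Slf1 and 2 in Sro9. Without a filter on low counts the counts were 2, 7, 0 and 2. DESeq2 called 7 hosts for sro9Δ untreated, 1 for sro9Δ after H2O2, 6 for slf1Δ untreated and 15 for slf1Δ after H2O2. Among hosts with a cluster in any library, 584 were called in WT, 3 in sro9Δ untreated, 2 in slf1Δ untreated and 9 in slf1Δ after H2O2. With the replicate block, 260 hosts were called in WT, 6 in slf1Δ after H2O2, 1 each in slf1Δ and sro9Δ untreated and 0 in sro9Δ after H2O2, and 0 after-stop windows in each PAR-CLIP contrast.

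Leaving out single libraries gave -4.97 to -3.81 points for the share of Slf1 minus Sro9, -2.58 to -1.43 for that of mRNA clusters, 1.02 to 2.18 for uridine (exact p 0.0286 without Slf1 H2O2 replicate 1), -6.08 to 1.58 nt for distance, -10.75 to 12.25 nt for the distance of H2O2 minus untreated in Slf1 and -1.5 to 0.5 nt in Sro9, and -2.03 to 0.948 points for the Sro9 share. It gave 0 to 60 windows for Slf1 against Sro9 after H2O2, 102 to 293 hosts for WT, 0 to 73 for sro9Δ untreated, 0 to 3 for sro9Δ after H2O2, 0 to 88 for slf1Δ untreated and 0 to 38 for slf1Δ after H2O2. Counts of hosts in both replicates have no such values. The cause of these shifts was not tested. The differences in uridine and guanine between after-stop and ORF clusters, in cluster length and in host level and coding length kept their sign and side of 0.05 in every alternative run. None of these runs matched the base content of the regions or the length of the ORFs compared. The small number of sites limits Slf1, whose libraries held 51 to 183 after-stop clusters against 773 to 1162 for Sro9.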
